A study of Sus scrofa with 32 samples.

Results

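Parvalbumin (PVALB, ENSSSCG00000000138), the calcium pump ATP2A1 (ENSSSCG00000007805), the myosin-binding protein MYBPC2 (ENSSSCG00000003218), the myosin light chain MYL1 (ENSSSCG00000016157) and the tropomyosin TPM1 (ENSSSCG00000004570) were followed as 5 genes of fast-twitch muscle fibres. They were taken by gene symbol and identifier, 5 of 17930 identifiers listed in the count tables, and all 5 were among the 12821 genes with enough reads to be tested. The samples were loin muscle (longissimus dorsi) of 32 pigs aged 6 months, kept under like housing and feed, all labelled wild type, with 1 RNA-seq library per pig. There were 8 pigs of a cross of Duroc, Landrace and Dapulian (DLDPL), 8 of a cross of Landrace and Dapulian (LDPL), 8 of the breed Dapulian (DPL) and 8 of the breed Landrace (L). The series examined how transcription varies among these breeds, and the labels give neither the direction of each cross nor the sex of the pigs.

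Fast fibres contract and relax quickly because they pair a fast myosin with a large capacity to take calcium back out of the cytosol. ATP2A1 encodes SERCA1, the pump that returns calcium to the sarcoplasmic reticulum in fast fibres, and PVALB encodes a soluble calcium buffer that in rodents is abundant in the fastest fibres and speeds relaxation. MYBPC2 and MYL1 belong to the thick filament, as the fast form of myosin-binding protein C and the essential light chain of fast myosin, while TPM1 encodes the alpha tropomyosin of the thin filament, present in fast fibres and in the heart. Slow fibres use other genes for the same parts, among them MYBPC1 and MYL3.

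The libraries held 24972962 ± 2268551 counted reads in DLDPL, 24612294 ± 771859 in LDPL, 26184718 ± 3068135 in DPL and 26590633 ± 1158018 in L (SD, n = 8 each). Levels are given as RPKM, the read count of a gene scaled to its length and to the reads of its library, computed here from the deposited counts on library sizes adjusted by edgeR's TMM scaling. CPM is the same value without the division by length. The 5 genes together took 4.62 ± 0.27% of all reads in DLDPL, 4.81 ± 0.54% in LDPL, 3.28 ± 0.32% in DPL and 5.48 ± 0.62% in L (SD, n = 8 each). The 4 tested skeletal fibre markers were abundant in every library, with summed medians of 83893, 84596, 70578 and 114254 CPM in DLDPL, LDPL, DPL and L. The sum ranged from 48830 to 99080 CPM in DPL and from 47761 to 128075 CPM in L, so these groups overlapped. By median it was lowest in DPL and highest in L, and its part in the results on the 5 genes was not tested. In bulk muscle, fewer fibres of a type and less RNA per fibre cannot be told apart. Replicate 2 of L stood apart: it had the largest scaling factor, 1.44, and the lowest level of each of the 5 genes among the L libraries. Comparisons with L are therefore also given without it. The L libraries carry a number series of their own in the labels, so a batch that follows the breed and the breed itself cannot be told apart.

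Among the 5 genes PVALB was the least abundant and the most variable. Its mean level ranked 1077 of the 12821 tested genes, with 45 to 2569 reads per library. The lowest, median and highest levels of PVALB were 22.6, 39.1 and 57.6 RPKM in DLDPL, and 9.90, 28.3 and 177 RPKM in LDPL. In DPL they were 3.41, 7.30 and 26.0 RPKM, and in L 7.77, 60.7 and 159 RPKM. Dapulian pigs were low as a group, and each of the 8 DPL libraries lay below the median of L and below the medians of both crosses. The ranges of DPL and L overlapped, since L replicates 2 and 7, at 7.77 and 21.9 RPKM, lay within the DPL range. LDPL was the widest group, and its replicates 15 and 14, at 177 and 113 RPKM, lay well above the other LDPL pigs. DLDPL was the most even group for this gene.

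ATP2A1 was among the most abundant transcripts, with a rank of 36. Its lowest, median and highest levels were 1684, 2083 and 2775 RPKM in DLDPL and 1696, 2025 and 2524 RPKM in LDPL. In DPL they were 1552, 1921 and 2586 RPKM, and in L 2059, 3420 and 4388 RPKM. The 3 groups with Dapulian ancestry lay together, and the L pigs lay above them, apart from L replicate 2. The second lowest L library, replicate 5, had 2913 RPKM, which was above each library of the other 3 groups. On the RPKM as deposited, without TMM scaling, the lowest L library had 2970 RPKM and the highest DLDPL, LDPL and DPL libraries had 2697, 2528 and 2432 RPKM, so that L did not overlap with any of them. Of all tested genes, 1.31% did so in this direction in DLDPL against L, 2.57% in LDPL against L and 5.46% in DPL against L.

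MYBPC2 ranked 45. Its lowest, median and highest levels were 1001, 1399 and 1563 RPKM in DLDPL and 1258, 1399.9 and 1821 RPKM in LDPL. In DPL they were 1069, 1158 and 1526 RPKM, and in L 1146, 2163 and 2396 RPKM. L was again the high group and DPL the lowest by median, with the medians of both crosses between them and nearer to DPL. With L replicate 2 set aside, the lowest L library had 1792 RPKM, above each DLDPL and DPL library and below 1 LDPL library, replicate 8. In the RPKM as deposited, DPL and L did not overlap for MYBPC2, at 953 to 1435 RPKM in DPL and 1654 to 2340 RPKM in L. The same held in this direction for 5.46% of all tested genes. On the scaled levels DPL and L overlapped, through L replicate 2.

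MYL1, ranked 9, was the most abundant of the 5 genes. Its lowest, median and highest levels were 13265, 21577.5 and 24400.4 RPKM in DLDPL and 17333, 21761.5 and 25651 RPKM in LDPL. In DPL they were 12058, 14091 and 17750.3 RPKM, and in L 10719, 19679 and 22795 RPKM. Here DPL was the low group and the crosses lay with L, with medians slightly above it. Of the 8 LDPL libraries, 7 lay above the whole DPL range.

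TPM1 ranked 15. Its lowest, median and highest levels were 8988, 13039.8 and 16867 RPKM in DLDPL and 10418, 14585 and 15876 RPKM in LDPL. In DPL they were 6995, 9075 and 12661 RPKM, and in L 7134, 15102 and 20041 RPKM. The order by median was L, LDPL, DLDPL and DPL, and the spread of L covered those of the 3 other groups but for the lowest DPL library. TPM1 shares stretches of sequence with the other tropomyosin genes, and the counts are of uniquely mapped reads, so reads that matched several of these genes equally are not in them.

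**Figure D1:**
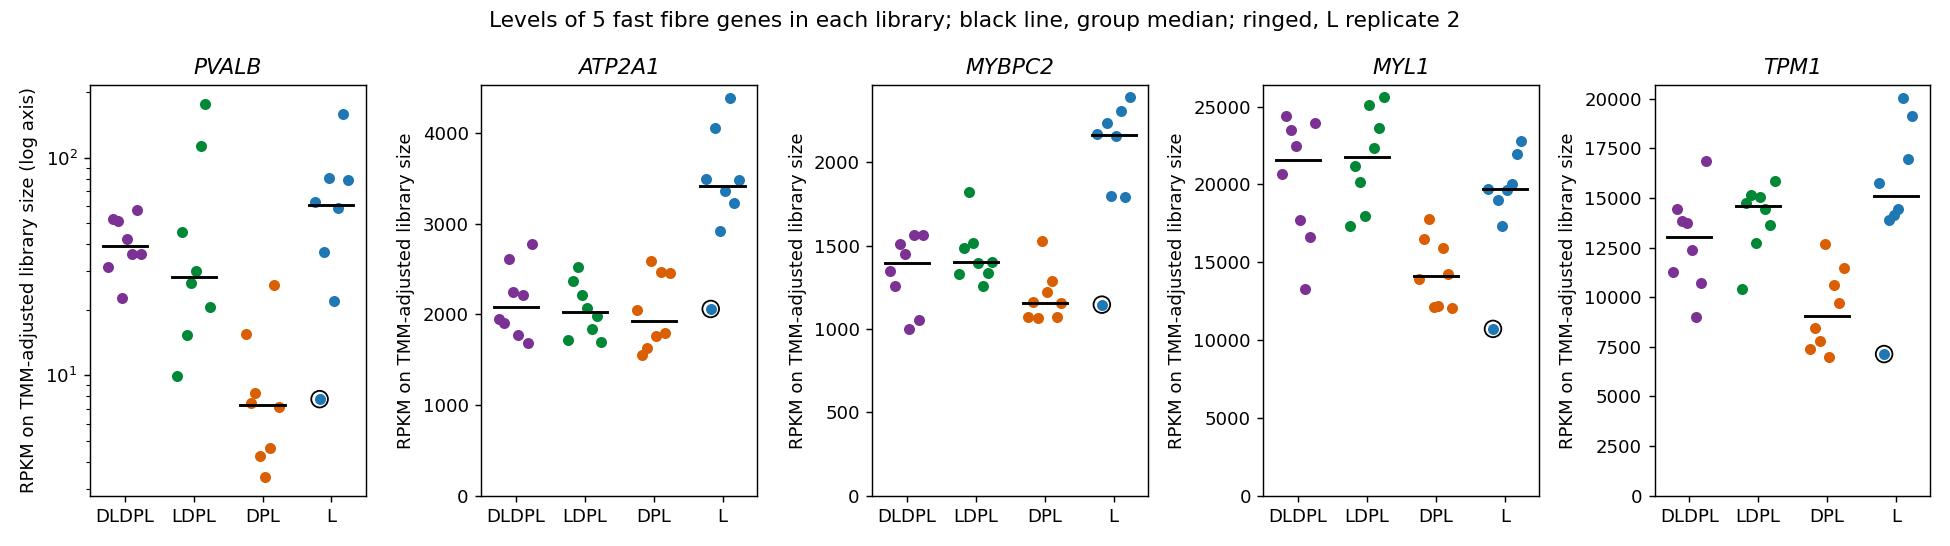
Level of each of the 5 genes in every library, in RPKM on the TMM-adjusted library size (log axis for PVALB, linear axes from 0 for the others), for DLDPL, LDPL, DPL and L (n = 8 each). Points are libraries, black lines are group medians and the ring marks L replicate 2. ATP2A1 and MYBPC2 are high in L and lower in the other 3 groups, whereas MYL1, TPM1 and PVALB are low in DPL. The crosses lie near L for MYL1 and TPM1, and for PVALB their medians lie between those of DPL and L.

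Each pair of groups was compared with edgeR's quasi-likelihood test over all tested genes, and a gene was called at a Benjamini-Hochberg adjusted p under 0.05. The 3 comparisons with L share the L libraries and those with DPL share the DPL libraries, so they are not independent of each other. On the scaled levels the ranges of every pair of groups overlapped for each of the 5 genes. All 5 genes were lower in DPL than in L. This was 5 of 5 genes beside 38.0% of all tested genes called in either direction and 18.9% called lower. The 5 genes and the gene lists below were chosen with earlier results of these data known. Their counts of calls are therefore not independent of that choice. PVALB changed most, by a log2 change of -2.72 ± 0.53 (SE, n = 8 each, adjusted p = 0.000151), which is 6.57-fold lower. The calcium pump ATP2A1 fell by 0.73 ± 0.14 on the log2 scale (adjusted p = 0.000153) and MYBPC2 fell by 0.74 ± 0.13 (adjusted p = 2.92e-05), both about the same size. TPM1 fell by 0.69 ± 0.16 (adjusted p = 0.000995). The smallest change was that of MYL1, a log2 change of -0.40 ± 0.14 (adjusted p = 0.0264). All 8 DPL libraries lay below the L median for each of the 5 genes.

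Without L replicate 2 the log2 changes in DPL against L were larger, at -2.90 for PVALB, -0.82 for ATP2A1, -0.84 for MYBPC2, -0.50 for MYL1 and -0.81 for TPM1. The call of MYL1 was lost when DPL replicate 19, 21 or 30 or L replicate 9 or 10 was left out (log2 change -0.37 to -0.36, adjusted p 0.0519 to 0.0575). It was also lost with no filter on low counts (adjusted p = 0.0541) and with only these 2 groups in the fit (adjusted p = 0.0594). The share of reads from mitochondrially encoded genes was 22.7 ± 4.9% in DLDPL, 22.9 ± 4.4% in LDPL, 31.3 ± 5.6% in DPL and 20.8 ± 2.6% in L (SD), so it was highest in the group in which the 5 genes were lowest. Its part in the result was not tested across groups. Leaving these genes out before scaling kept all 5 calls.

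In LDPL against L, ATP2A1 and MYBPC2 were lower and the other 3 genes were not called. The 2 called genes of 5 stand beside 29.6% of all tested genes in either direction and 14.7% lower. ATP2A1 fell by 0.72 ± 0.14 on the log2 scale (adjusted p = 0.000286) and MYBPC2 fell by 0.47 ± 0.13 (adjusted p = 0.00549), and all 8 LDPL libraries lay below the L median for both. For MYL1 the log2 change was 0.20, with a 95% interval of -0.08 to 0.48 (adjusted p = 0.308). TPM1 had a log2 change of -0.12 with an interval of -0.43 to 0.20 (adjusted p = 0.620). PVALB had a log2 change of -0.21 with a wide interval of -1.18 to 0.76 (adjusted p = 0.786). With 1 library left out it ranged from -0.76 to 0.14 and was never called, and its sign turned without L replicate 9, the highest L library. The 10 libraries of L and LDPL that share a number lack LDPL replicates 14 and 15, the highest for PVALB. Fitted alone with a term for the number, they gave a log2 change of -1.73 (edgeR, adjusted p = 0.00224). Without L replicate 2 the changes were -0.80 for ATP2A1 and -0.57 for MYBPC2, both still called.

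The comparison of DLDPL with L gave the same 2 calls. ATP2A1 fell by 0.65 ± 0.14 on the log2 scale (adjusted p = 0.00122) and MYBPC2 fell by 0.57 ± 0.13 (adjusted p = 0.00143), beside 21.9% of all tested genes called in either direction and 10.3% lower. Again all 8 libraries of the cross lay below the L median for both genes. The intervals of the other genes spanned 0, from -1.59 to 0.35 for PVALB, from -0.17 to 0.39 for MYL1 and from -0.57 to 0.07 for TPM1. All 8 DLDPL libraries lay below the L median of PVALB as well, but the change of -0.62 was not called (adjusted p = 0.395). Without L replicate 2 the changes of ATP2A1 and MYBPC2 were -0.74 and -0.67, both still called.

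Set against DPL, the calls in the crosses fell on genes that were not called against L. In LDPL against DPL, PVALB, MYL1 and TPM1 were called higher, 3 of 5 genes beside 2.85% of all tested genes in either direction and 1.29% higher. PVALB rose by a log2 change of 2.51 ± 0.53 (adjusted p = 0.00849), MYL1 by 0.60 ± 0.14 (adjusted p = 0.0211) and TPM1 by 0.58 ± 0.16 (adjusted p = 0.0467). The log2 change of ATP2A1 was 0.01, with an interval of -0.27 to 0.29 (adjusted p = 0.984), and that of MYBPC2 was 0.27, with an interval of 0.02 to 0.52 (adjusted p = 0.260). For MYBPC2 all 8 LDPL libraries lay above the DPL median, and the exact permutation test of its log2 CPM, adjusted over the 30 tests of 5 genes and 6 pairs of groups, gave 0.0161.

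The call of TPM1 in LDPL against DPL is the weakest of these. It was lost in 22 of the 32 fits that left out 1 library, with adjusted p up to 0.0870 and log2 changes from 0.53 to 0.60. Those libraries were DLDPL replicates 6, 20, 25 and 27, LDPL replicates 5, 8, 9, 10, 14, 15 and 24, DPL replicates 7, 11, 16, 21, 23 and 26, and L replicates 1, 4, 5, 7 and 9. It was lost with no filter on low counts as well (adjusted p = 0.0652). The call of PVALB was kept in each of the 32 such fits (log2 change 1.95 to 2.91) and lost with limma voom and sample weights (log2 change 1.92, adjusted p = 0.0886). MYL1 was called in each of the 32.

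In DLDPL against DPL, PVALB and MYL1 were called higher, 2 of 5 genes beside 4.1% of all tested genes in either direction and 1.98% higher. PVALB rose by a log2 change of 2.10 ± 0.52 (adjusted p = 0.0194), and 7 of the 8 DLDPL libraries lay above the whole DPL range. MYL1 rose by 0.50 ± 0.14 (adjusted p = 0.0386). TPM1 had a log2 change of 0.44, with an interval of 0.13 to 0.76 (adjusted p = 0.109), and was called without L replicate 2 (log2 change 0.45, adjusted p = 0.0481), by the exact permutation test (adjusted p = 0.0230) and by limma on log2(RPKM + 1) and log2(RPKM + 0.1) (adjusted p = 0.0116 and 0.0122). ATP2A1 and MYBPC2 had log2 changes of 0.07 (interval -0.20 to 0.35, adjusted p = 0.822) and 0.17 (interval -0.08 to 0.42, adjusted p = 0.495). The call of MYL1 was lost without DLDPL replicate 6, 18, 20, 25 or 32 or DPL replicate 7, 19, 21, 26 or 30 (log2 change 0.46 to 0.50, adjusted p 0.0527 to 0.0823). It was also lost with no filter on low counts and with only these 2 groups in the edgeR fit (adjusted p up to 0.0863). The call of PVALB was lost with limma voom and sample weights (log2 change 2.05, adjusted p = 0.0503).

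None of the 5 genes was called between the crosses, where the background was 0.0% of all tested genes. By edgeR 0 of 12821 genes were called in DLDPL against LDPL and 969 had an unadjusted p under 0.05, while DESeq2 called 33 and limma voom with sample weights called 1. The log2 changes were -0.41 for PVALB (interval -1.39 to 0.56), 0.06 for ATP2A1 (interval -0.21 to 0.34), -0.10 for MYBPC2 (interval -0.35 to 0.15), -0.09 for MYL1 (interval -0.37 to 0.19) and -0.13 for TPM1 (interval -0.45 to 0.18). The sign of PVALB depended on the test, with a difference of 0.17 between the means of log2 CPM, and on LDPL replicate 15, without which the edgeR change was 0.14.

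**Figure D2:**
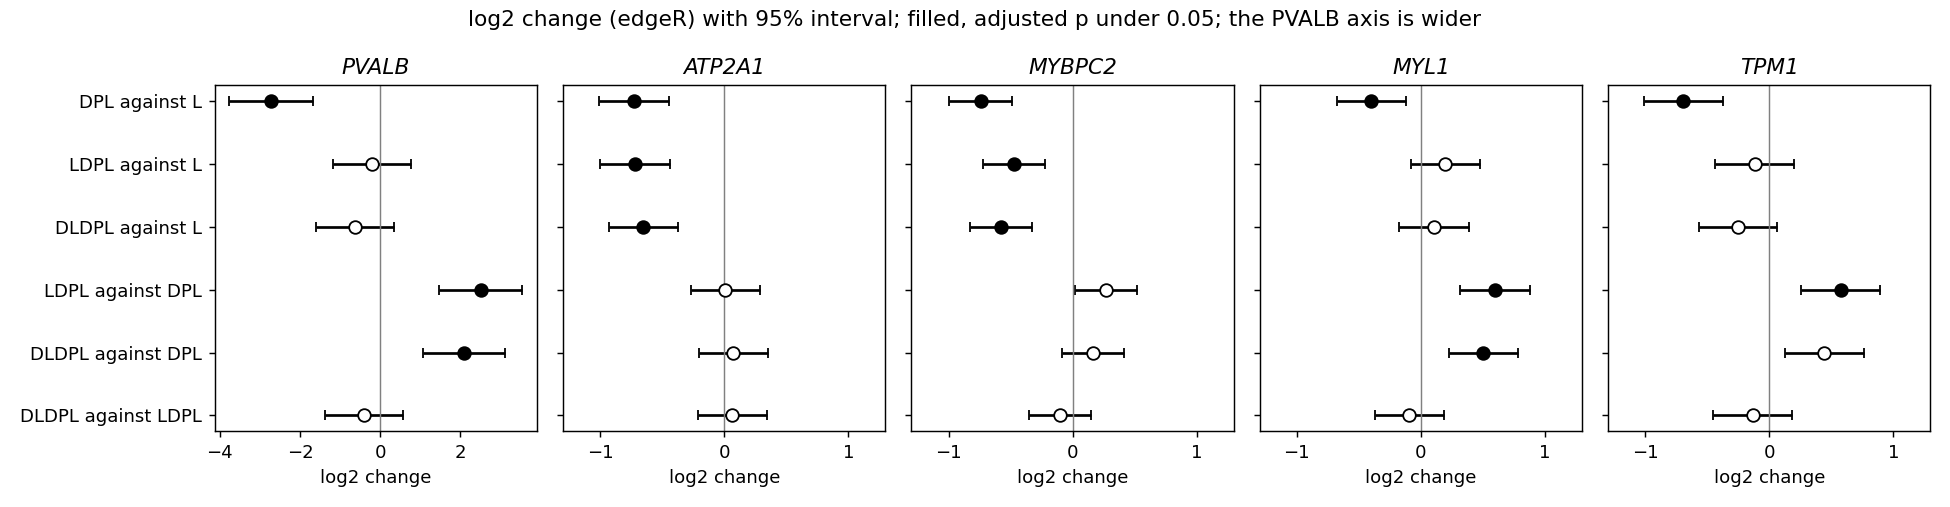
log2 change of each of the 5 genes in 6 comparisons, first-named group over the second, from edgeR, with 95% intervals as bars; filled points have an adjusted p under 0.05, and the axis of PVALB is wider than the others. ATP2A1 and MYBPC2 are below 0 in all 3 comparisons with L and have open points in the comparisons among the other groups, where MYBPC2 in LDPL against DPL has an interval above 0, while PVALB, MYL1 and TPM1 are below 0 in DPL against L and above 0 in the crosses against DPL.

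LDPL was also set against the middle of the parental breeds, the mean of the log2 levels of DPL and L. MYL1 was called above the midpoint, with a log2 difference of 0.40 ± 0.12 (adjusted p = 0.0379), 1 of 5 genes beside 8.12% of all tested genes in either direction and 5.13% higher. PVALB had 1.15 with an interval of 0.33 to 1.97 (adjusted p = 0.0844), and TPM1 had 0.23 with an interval of -0.04 to 0.50 (adjusted p = 0.331). The calcium pump lay on the other side, with ATP2A1 at -0.35 and an interval of -0.60 to -0.11 (adjusted p = 0.0755), and MYBPC2 had -0.10 with an interval of -0.32 to 0.12 (adjusted p = 0.647). These calls were close to the threshold. That of MYL1 was lost without LDPL replicate 5, 10, 14, 15 or 24, DPL replicate 19, 21, 26 or 30, or L replicate 5 (adjusted p 0.0511 to 0.0832). PVALB was called without LDPL replicate 4, DPL replicate 26 or L replicate 9 (log2 difference 1.31 to 1.35). Without LDPL replicate 15 its difference was 0.60 (adjusted p = 0.441), and with limma voom and sample weights it was 0.64 (adjusted p = 0.392). ATP2A1 was called without L replicate 2 (log2 difference -0.40, adjusted p = 0.0277).

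All 5 genes were called in DPL against L, but in the comparisons of the crosses ATP2A1 and MYBPC2 were called against L, and PVALB, MYL1 and TPM1 against DPL, TPM1 in LDPL alone. The ratio of each pair of genes was therefore taken within each library. A ratio of 2 genes in the same library does not depend on the scaling of that library. These ratios were chosen after the levels had been seen, and each was tested between pairs of groups with a two-sided exact permutation test, adjusted over 60 tests, of which 28 were called. The ratio of ATP2A1 to TPM1 had medians of 0.164 in DLDPL, 0.153 in LDPL, 0.212 in DPL and 0.220 in L. In LDPL it ranged from 0.107 to 0.173, which overlapped neither with 0.183 to 0.277 in DPL nor with 0.182 to 0.292 in L. The fold was 0.672 in LDPL against DPL and 0.647 in LDPL against L, both with p = 0.0001554, the smallest that this exact permutation test of 8 against 8 can give (adjusted p = 0.00311). In DLDPL the ratio of ATP2A1 to TPM1 was 0.774 of that in DPL (exact permutation test, adjusted p = 0.0297) and 0.746 of that in L (adjusted p = 0.0228). Between the breeds it was not called, with a fold of 0.964 in DPL against L (exact permutation test, adjusted p = 0.778).

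The ratio of ATP2A1 to MYL1 was also low in LDPL, but it overlapped with DPL. It ranged from 0.0661 to 0.125 in LDPL and from 0.147 to 0.219 in L, with no overlap, and the fold was 0.530 (exact permutation test, adjusted p = 0.00311). In DPL it ranged from 0.0919 to 0.213, and the fold in LDPL against DPL was 0.671 (exact permutation test, adjusted p = 0.0332). In DLDPL against L the fold of this ratio was 0.594 (exact permutation test, adjusted p = 0.00466), and in DPL against L it was 0.790 (adjusted p = 0.128). MYBPC2 to MYL1 gave folds of 0.632 in LDPL against L and 0.629 in DLDPL against L (exact permutation tests, adjusted p = 0.00466 and 0.00699). This ratio was not called in DPL against L, with a fold of 0.792 (adjusted p = 0.0505 by the same test). Nor was it called in LDPL or DLDPL against DPL, with folds of 0.798 and 0.794 (adjusted p = 0.110 and 0.128). The ratio of ATP2A1 to MYBPC2 in DPL against L had a fold of 0.998 (exact permutation test, adjusted p = 0.989), with medians of 1.58, 1.46, 1.68 and 1.70 in DLDPL, LDPL, DPL and L. In LDPL it was 0.839-fold of that in L and 0.841-fold of that in DPL (exact permutation tests, adjusted p = 0.00999 and 0.0398). It was 1.13-fold higher in DLDPL than in LDPL (exact permutation test, adjusted p = 0.0404), the only one of the 10 ratios called between the crosses. The ratio of MYL1 to TPM1 had medians of 1.59, 1.58, 1.61 and 1.27 in DLDPL, LDPL, DPL and L. It was higher in DLDPL and LDPL than in L, by 1.25-fold and 1.22-fold (exact permutation tests, adjusted p = 0.00622 and 0.00999). DPL against L had a fold of 1.22 as well, but it was not called (exact permutation test, adjusted p = 0.179). The DPL libraries ranged widely, from 0.957 to 2.28. Neither LDPL nor DLDPL was called against DPL for this ratio (adjusted p = 0.989 and 0.911 by the same test).

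Ratios to slow-fibre counterparts, and the ratio of PVALB to another fast gene given below, were tested in the same way. Of these 18 tests together, 10 were called. MYL1 over MYL3, the essential light chain of slow and cardiac myosin, had medians of 26.7 in DLDPL, 31.4 in LDPL, 12.8 in DPL and 31.4 in L. Dapulian pigs were thus low in this ratio, with a fold of 0.384 in DPL against L (exact permutation test, adjusted p = 0.00839), and the crosses were higher than DPL, by 2.27-fold in LDPL (adjusted p = 0.00629) and 1.92-fold in DLDPL (adjusted p = 0.00932). MYBPC2 over MYBPC1, its slow form, had medians of 2.11, 2.49, 1.82 and 3.85 in DLDPL, LDPL, DPL and L. All 3 groups were below L, at 0.628 in DLDPL, 0.721 in LDPL and 0.522 in DPL (exact permutation tests, adjusted p = 0.00999, 0.0305 and 0.00629). LDPL was 1.38-fold above DPL (adjusted p = 0.0189 by the same test). The difference of LDPL from L was lost in 8 of the 32 cases with 1 library left out, LDPL replicate 10, 14 or 15 or L replicate 1, 2, 8, 9 or 10 (adjusted p up to 0.0638).

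PVALB has no slow form, and it was set over MYL11, the regulatory light chain of fast myosin also known as MYLPF. Its ratio was 0.196 of that in L in DPL (exact permutation test, adjusted p = 0.00629), and the crosses were higher than DPL, by 3.60-fold in LDPL (adjusted p = 0.0230) and 4.04-fold in DLDPL (adjusted p = 0.00629). PVALB was thus lower in DPL relative to another fast gene of the same libraries. L replicate 2, the lowest L library for all 5 genes, did not have low ratios to the slow genes: its MYL1 to MYL3 ratio of 143 and its MYBPC2 to MYBPC1 ratio of 4.97 were the highest of the L group.

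**Figure D3:**
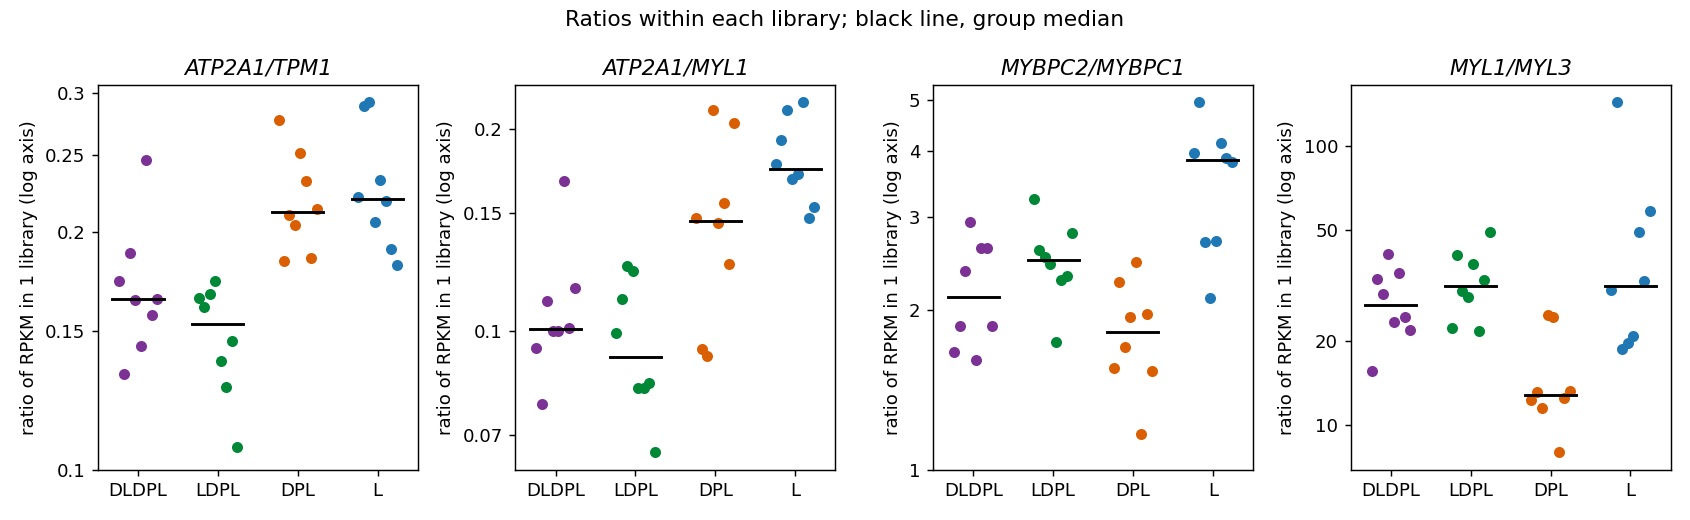
Ratio of the RPKM of 2 genes within each library (log axes) for DLDPL, LDPL, DPL and L; points are libraries and black lines are group medians. ATP2A1 over TPM1 is lower in LDPL than in every DPL and L library, MYBPC2 over MYBPC1 is highest in L, and MYL1 over MYL3 is lowest in DPL.

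Pigs of the same group varied more in PVALB than in the other 4 genes, least so in DLDPL. The SD of its log2 CPM was 0.45 in DLDPL, 1.41 in LDPL, 0.97 in DPL and 1.34 in L. Among 5303 genes with a mean level of at least 5 RPKM, 88.9%, 99.5%, 98.6% and 99.4% had a smaller SD in DLDPL, LDPL, DPL and L. The SD of the other 4 genes lay between 0.16 and 0.46 in all groups.

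After the group means were removed, pigs with more ATP2A1 also had more MYBPC2. Over 32 libraries Pearson's r was 0.82 and Spearman's rho 0.78 (permutation within groups, adjusted p = 0.0001 for both, over 10 pairs of genes), r was positive in each of the 4 groups, and it was 0.78 without the 2 farthest libraries, L replicate 2 and DPL replicate 11. ATP2A1 with TPM1 gave r = 0.69 and rho = 0.62 (permutation, adjusted p = 0.00155 and 0.003), and r = 0.57 without the same 2 libraries. MYBPC2 with TPM1 gave r = 0.62 and rho = 0.46 (permutation, adjusted p = 0.0116 and 0.03), and r = 0.42 without L replicate 2 and DLDPL replicate 27.

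MYL1 and TPM1 had r = 0.66 and rho = 0.52 (permutation, adjusted p = 0.00393 and 0.0124), but r was 0.38 without L replicate 2 and DLDPL replicate 28, and it was -0.32 within DPL against 0.90 in DLDPL, 0.78 in LDPL and 0.95 in L. PVALB with MYL1 gave r = 0.45 (permutation, adjusted p = 0.0284) but rho = 0.30 (adjusted p = 0.154), and r = 0.25 without L replicate 2 and LDPL replicate 15. The other 5 pairs were not called, among them ATP2A1 with MYL1 at r = 0.26 (permutation, adjusted p = 0.226) and rho = 0.09. On log2(RPKM + 1), where no TMM factor is applied, 3 pairs were called: ATP2A1 with MYBPC2 (r = 0.69), ATP2A1 with TPM1 (r = 0.47) and PVALB with MYL1 (r = 0.48). Relations that involve TPM1 and the thick filament genes, r = 0.34 with MYBPC2 and 0.39 with MYL1 on that scale, were no longer called (permutation, adjusted p = 0.104 for both). Within groups, r with the share of mitochondrially encoded reads was between -0.03 and 0.31 for the 5 genes.

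**Figure D4:**
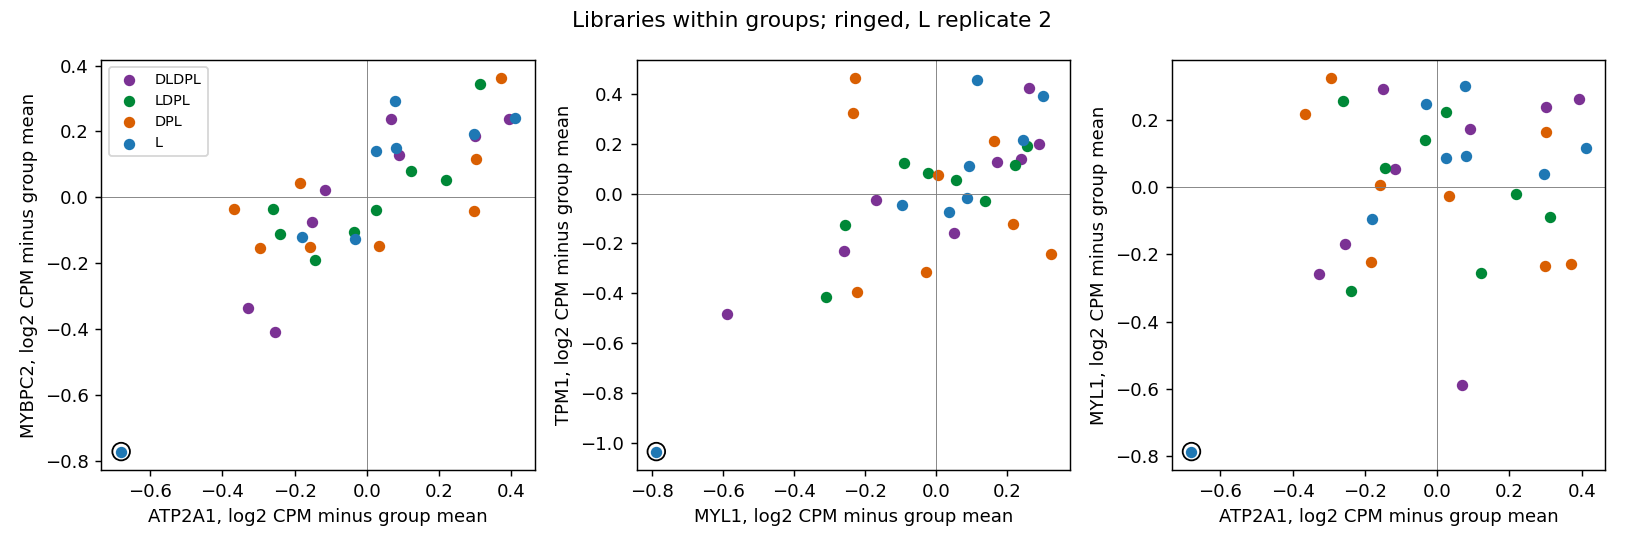
log2 CPM minus the group mean for 3 pairs of genes, 1 point per library, coloured by group (DLDPL, LDPL, DPL, L), with L replicate 2 ringed. MYBPC2 follows ATP2A1 in all groups (r = 0.82), TPM1 follows MYL1 except in DPL (r = 0.66), and MYL1 with ATP2A1 has r = 0.26, or 0.06 without L replicate 2 and DPL replicate 11.

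The genes whose log2 CPM was most like that of each gene, by Pearson's r over 32 libraries after removal of group means, were sought among 3736 genes with a symbol and a mean of at least 5 RPKM. Nearest to PVALB were OPTN (r = 0.65), CARNMT1 (0.64), HDAC2 (0.64), LDHA (0.62) and HOMER1 (0.62). Nearest to ATP2A1 were DCAF8 and KIAA2013 (both 0.84), then CMYA5, CAMK2G and HOMER3 (all 0.82). MYBPC2 was closest to PYGM, the muscle glycogen phosphorylase, at r = 0.90, followed by DCAF8 (0.85), ATP2A1 (0.82), PFKM (0.81) and RABGGTA (0.80). MYL1 was closest to CASQ1, the fast calsequestrin, at 0.79, followed by LDHA and GPI (both 0.76), PGAM2 (0.75) and GAMT (0.74). TPM1 was closest to ENO3, the muscle enolase, at 0.86, followed by MYL11 (0.84), SLC37A4 (0.82), MAPK6 (0.79) and LRRC20 (0.78). These values share the libraries and the scaling factors, including that of L replicate 2.

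Of 11 tested genes of the fast fibre list, 8 were lower and 1 was higher in DPL than in L. The list includes the 5 genes, which made up 5 of these 8 lower calls. The median log2 change of the list, to which the 5 genes contribute, was -0.61 beside -0.02 over all tested genes. Of all tested genes 18.9% were called lower and 19.1% higher. The others that fell were the fast calsequestrin CASQ1 (log2 change -0.61 ± 0.15, adjusted p = 0.00153), the myosin light chain kinase MYLK2 (-0.80 ± 0.23, adjusted p = 0.00633) and the reticulum protein SRL (-0.35 ± 0.11, adjusted p = 0.0102). MYOZ1, a Z-disc protein of fast fibres, rose by 0.32 ± 0.12 (adjusted p = 0.0267). TNNC2, fast troponin C, had a log2 change of 0.06 (adjusted p = 0.720) and MYL11 one of -0.27 (adjusted p = 0.159). In both LDPL against L and DLDPL against L, 3 of the 11 were lower and 0 higher, ATP2A1, MYBPC2 and MYLK2, beside 14.7% and 10.3% of all tested genes lower in these comparisons. MYLK2 had log2 changes of -1.08 ± 0.23 in LDPL and -1.04 ± 0.23 in DLDPL (adjusted p = 0.000595 and 0.00136). Without L replicate 2, 9 were lower and 0 higher in DPL, and 5 were lower in each of LDPL and DLDPL; the call of MYOZ1 was lost there, with upper quartile scaling and on log2(RPKM + 1). The fast myosin heavy chains were not analysed here. TNNI2, TNNT3, ACTN3 and MYOZ3, also among the 18 listed genes, were not among those tested.

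Against L, 12 of 17 tested genes of calcium release and uptake were called lower in DPL, 10 in LDPL and 9 in DLDPL, and 0 were called higher in any of the 3. The shares of all tested genes called lower were 18.9%, 14.7% and 10.3%. The median log2 changes of the 17 genes were -0.61, -0.39 and -0.39. This list shares ATP2A1, CASQ1 and SRL with the fast fibre list. The smallest adjusted p in DPL against L were those of SYPL2, a membrane protein of the triad (log2 change -1.14 ± 0.15), the calmodulin CALM3 (-0.91 ± 0.13), CACNA2D1, a subunit of the voltage-gated calcium channel (-1.04 ± 0.17), and HRC, a calcium-binding protein of the reticulum lumen (-0.72 ± 0.13). HRC and CALM3 were also lower in LDPL against L (-0.95 and -0.56), and SYPL2 and HRC in DLDPL against L (-0.78 and -0.76). SLN, a peptide that inhibits the pump, had log2 changes of 0.11, 0.24 and 0.19 in DPL, LDPL and DLDPL against L, none called. Without L replicate 2 the counts of lower genes were 12 in DPL, 12 in LDPL and 11 in DLDPL. Between the crosses and DPL few of these genes were called, CACNA2D1 in LDPL (0.61 ± 0.17, adjusted p = 0.0436) and CALM3 in DLDPL (0.52 ± 0.13, adjusted p = 0.0188), both higher than in DPL. On log2(RPKM + 1) there were 4 calls in LDPL against DPL and 6 in DLDPL against DPL, all higher. Over all 12821 tested genes that setting called 133 higher and 51 lower in LDPL against DPL, and 397 and 53 in DLDPL against DPL.

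The called slow fibre genes went the other way. Of 17 listed genes 8 were tested, and 5 of these were higher and 0 lower in DPL than in L. The median log2 change of the 8 was 0.83, and 19.1% of all tested genes were called higher. MYBPC1, TNNI1 and TNNT1 were tested and not called. CSRP3, a muscle LIM protein, rose by 3.36 ± 0.38 (adjusted p = 4.34e-08), MYH7B by 1.43 ± 0.26, ACTN2 by 0.91 ± 0.15, slow troponin C (TNNC1) by 0.83 ± 0.29 and MYL3 by 0.83 ± 0.32. In LDPL against L and in DLDPL against L, 3 of 8 were higher, CSRP3, MYH7B and ACTN2, beside 14.9% and 11.6% of all tested genes, while MYL3 and TNNC1 were not called. Without L replicate 2, 4 of 8 were higher in DPL, and MYL3 was no longer called. Against DPL, none of the 8 was called in LDPL, and CSRP3 was lower in DLDPL (log2 change -1.39 ± 0.36, adjusted p = 0.0217). The slow myosin heavy chain and the slow pump were not analysed here. MYL2, MYL6B, TPM3, CASQ2, MYOZ2, PLN and MB, also listed, were not among the tested genes.

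**Figure D5:**
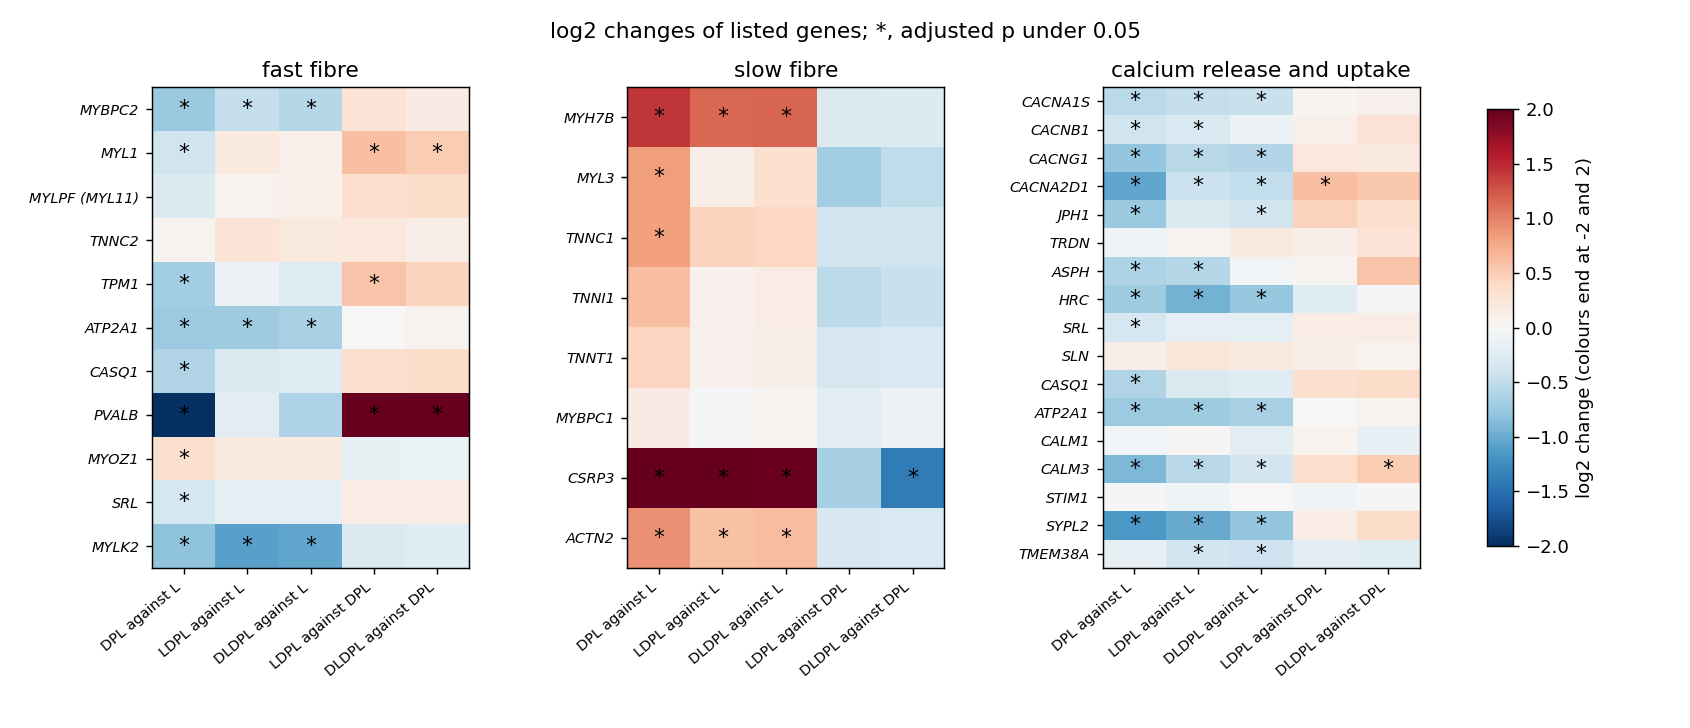
log2 change (edgeR) of the tested genes of 3 lists, fast fibre, slow fibre, and calcium release and uptake, in 5 comparisons, first-named group over the second; red is higher, blue is lower, colours end at -2 and 2, and an asterisk marks an adjusted p under 0.05. Calcium genes are mostly blue in all 3 comparisons with L, and in the fast fibre list ATP2A1, MYBPC2 and MYLK2 carry asterisks in all 3 of these.

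Sarcomere genes used by all fibres and regulators of fibre type gave mixed directions. In DPL against L, 19.1% of all tested genes were called higher and 18.9% lower. Of 13 sarcomere genes, 5 were higher and 4 lower, with MYOT, TRIM63 and KLHL40 higher (log2 changes 0.81, 1.23 and 1.62) and the actin-capping subunit CAPZB lower (-0.57). Of 20 regulators, 5 were higher and 7 lower in DPL than in L, against 4 and 10 on log2(RPKM + 1). On that scale 1277 of all 12821 tested genes were called higher and 3412 lower. RCAN1, an inhibitor of calcineurin, rose by 4.27 on the log2 scale, HDAC5 rose by 0.88, and the calcineurin subunit PPP3CA and HDAC4 changed by -1.08 and -1.15. RCAN1 was also higher in LDPL against L (3.58) and DLDPL against L (3.27).

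The levels of markers of other cells of muscle tissue were as follows. The sum of 4 of 6 listed fibroblast markers ranged from 919 to 2059 CPM in DLDPL, 524 to 1553 in LDPL, 326 to 1301 in DPL and 1260 to 2231 in L. The sum of 6 of 7 smooth muscle markers ranged from 120 to 269 CPM in DLDPL, 127 to 273 in LDPL, 134 to 244 in DPL and 109 to 177 in L. For 2 of 4 satellite cell markers the sums were 12.8 to 24.9 CPM in DLDPL, 12.6 to 25.6 in LDPL, 14.8 to 25.8 in DPL and 27.4 to 43.8 in L. None of the tested markers was at 0 in all libraries. Of the smooth muscle markers 2 were called higher and 1 lower in DPL than in L, and of the fibroblast markers 3 were called lower. In this comparison 19.1% of all tested genes were called higher and 18.9% lower. The smooth muscle sums overlapped between all groups. Among the 4 tested skeletal fibre markers, 1 was called higher and 1 lower in DPL than in L. Of the tested satellite cell, endothelium and lymphocyte markers 1 each was lower, and of those of adipocytes, macrophages, red blood cells and nerve 0 were called. The part of these cells in the results on the 5 genes was not tested.

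The balance of higher and lower calls over all genes depended on the scaling and the test, which both differ between edgeR with TMM and limma on log2(RPKM + 1). In DPL against L, edgeR with TMM called 2455 genes higher and 2418 lower, and limma on log2(RPKM + 1) called 1277 and 3412, where the median over all genes was -0.12 on the log2 scale. With upper quartile scaling in edgeR, which changes the scaling alone, there were 1955 and 3110. In LDPL against L the counts were 1905 and 1888 with TMM, 1543 and 2424 with upper quartile scaling, and 1214 and 2058 on log2(RPKM + 1). In LDPL against DPL they were 166 and 200 with TMM, 182 and 167 with upper quartile scaling, and 133 and 51 on log2(RPKM + 1). In DLDPL against DPL they were 254 and 272 with TMM, 305 and 200 with upper quartile scaling, and 397 and 53 on log2(RPKM + 1). The changes of the 5 genes in DPL against L exceeded that shift of the median and kept their direction and their calls, with -2.59 for PVALB, -0.88 for ATP2A1, -0.88 for MYBPC2, -0.54 for MYL1 and -0.83 for TPM1 on log2(RPKM + 1).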

How the data were processed

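The deposited tables, 1 per library, list for each gene a count of uniquely mapped reads, its length, a coverage and an RPKM value, per the file headers. The deposited RPKM equals the count divided by gene length and total reads. Bowtie 0.12.2, Cufflinks and mm8, a mouse build, stand in the submitters' processing notes, while the identifiers are pig Ensembl genes, so no coordinates are given. The counter is not given in the sources used here. Whether strand was used in counting is not given either, so reads of a gene and of one that overlaps it cannot be told apart. Symbols came from a table of names that matched 10836 identifiers (60.4%), and MYLPF is listed there as MYL11. The 5 genes and the gene lists were chosen with earlier results of these data known.

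The deposited counts were fitted with edgeR 4.0.16 (R 4.3.3; TMM scaling, filterByExpr with a minimum count of 10, quasi-likelihood test) over 32 libraries in 4 groups. The filter left 12821 genes with 99.97% of reads, and the common biological coefficient of variation was 0.285. P-values were adjusted by Benjamini-Hochberg over all tested genes, and 95% intervals are the normal ones from the SE, itself the log2 change over the root of the F statistic. The fit was tested on simulated data. Levels are CPM on TMM-adjusted library sizes, divided by gene length in kilobases. Ratios used deposited RPKM and exact permutation tests (scipy 1.17.1), and correlations used log2 CPM (prior count 2) with 100000 permutations within groups. The planned ratios ATP2A1/ATP2A2 and TPM1/TPM3 were not run, since no symbol matched ATP2A2 or TPM3. From each list and comparison, up to 4 genes with the smallest adjusted p are named besides the 5, and others where a ratio or a role needs them. Alternatives were DESeq2 1.42.0, limma 3.58.1 (log2(RPKM + 1), log2(RPKM + 0.1), voom with sample weights), other scalings, no filter, 2 groups only, mitochondrial genes left out, and each library left out in turn.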

Additional observations from a re-analysis of the deposited data

Results flagged for a closer look

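Of 20 sets of 8 values (5 genes in 4 groups), 2 held a library set apart from its group by a gap that was large against the whole range, and chance alone gives about 1 in 20 sets. MYBPC2 in LDPL replicate 8 was high, at 1821 RPKM, against 1518 RPKM in the next library, and the same library was the highest LDPL library for ATP2A1. MYL1 in L replicate 2 was low, at 10719 RPKM, against 17309 RPKM in the next L library. The scaling factor of that library and its lowest place among L libraries for all 5 genes are given above, and in the deposited RPKM, with no scaling factor, its MYL1 level was 15462.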

How the results depend on the processing

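Of 1465 values of the 5 genes under other settings, 1382 kept their direction and their side of the threshold, 57 lost and 13 gained a call, and 13 changed sign. The count of called genes in LDPL against L (3793) was 1813 with the replicate block, which holds only the 10 libraries of L and LDPL that share a number, and 2176 in those libraries without it. There PVALB fell by 1.73 (adjusted p = 0.00224) with the replicate block and by 1.71 (adjusted p = 0.0117) without it, and MYBPC2 had adjusted p = 0.0531 with it. The shared numbers do not pair the pigs (correlations of deviations -0.12 to 0.07). In LDPL against DPL (366) the count was 617 with DESeq2, 184 with limma on log2(RPKM + 1), 178 with 2 groups only and 151 to 442 with 1 library left out. In DLDPL against DPL (526) it was 802 with DESeq2, 252 with 2 groups only and 312 to 692 with 1 library left out, and of the 5 genes (2 called) it was 1 with voom, no filter or 2 groups only, 3 by the permutation test and by limma on both log2(RPKM) scales, and 1 to 3 with 1 library left out. In DLDPL against LDPL (0) it was 33 with DESeq2, 1 with voom, 2 with no filter and 0 to 3 with 1 library left out. Against the midpoint (1 of 5) it was 2 with voom, 0 with no filter and 0 to 2 with 1 library left out. The 10 calls among the ratios to slow counterparts and of PVALB to MYL11 were 9 to 10. Sign changes were in PVALB in DLDPL against LDPL (0.21 and 0.19 with limma on log2(RPKM + 0.1) and log2(RPKM + 1), 0.12 with voom, 0.17 on mean log2 CPM, -0.57 to 0.14 with 1 library left out) and in LDPL against L (-0.76 to 0.14), in ATP2A1 in LDPL against DPL (-0.039 to 0.066), in the log2 ratios MYL1/MYL3 in LDPL against L (-0.34 to 0.083) and PVALB/MYL11 in DLDPL against LDPL (-0.056 to 0.51). In within-group correlations on log2(RPKM + 1), where 3 of 10 were called, the signs of PVALB with ATP2A1 (-0.0021), ATP2A1 with MYL1 (-0.36) and MYBPC2 with MYL1 (-0.19) turned. The cause was not tested in any of these. PVALB had the fewest reads of the 5 genes, from 45 to 2569 per library.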
